A study of Mus musculus with 8 samples.

Results

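A set of 42 genes was followed that holds the transcription factor NRF2 (Nfe2l2), its inhibitor Keap1 and the enzymes that make and use glutathione, reduce peroxides and superoxide, and supply NADPH for these reactions. Members were taken by gene symbol from a table of 12160 genes, in which 41 had a row (Sod2, the mitochondrial superoxide dismutase, was not analysed here). The libraries came from immortalized mouse pancreatic stellate cells (PSCs), fibroblast-like cells of the pancreas, all of 1 line, grown in Matrigel domes with 20000 cells seeded per culture. All 8 cultures spent 4 days in serum-containing growth medium before 4 days in 1 of 3 media. The first was medium conditioned by pancreatic cancer organoids (KPC) in which Brca2 was silenced by shRNA (shBrca2-CM, n = 3). The second came from KPC organoids with a non-targeting shRNA (shControl-CM, n = 3). The third was a control medium (n = 2) that the sample titles name as DMEM and the recorded treatment as the PSCs' own conditioned medium, so its composition stayed unresolved. The silencing was in the organoids and not in the PSCs, so it could not be checked in these libraries. The domes were described as biologically independent cultures of the single PSC line, and p-values below measure the spread between these cultures. Whether the domes of a group received separate preparations of conditioned medium, or medium from separately silenced organoids, is not stated in the sources used here. The p-values may therefore not cover variation between preparations or silenced lines.

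NRF2 is held in the cytoplasm by KEAP1, which directs it to degradation. Oxidants and electrophiles modify KEAP1, and NRF2 then enters the nucleus, pairs with small MAF proteins and binds the antioxidant response element (ARE) of genes for detoxifying enzymes, glutathione synthesis, thioredoxins and NADPH supply. Much of this control acts on the NRF2 protein, so the level of Nfe2l2 RNA is not a measure of NRF2 activity. In pancreatic fibroblasts, as in other cells, these enzymes set how peroxides, superoxide and lipid peroxides are cleared.

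Promoter windows were read to see which members carry the ARE core close to their start. RefSeq windows from 250 bases before to 50 bases after a gene's start (GRCm38.p6) were found for 35 of the 41 members, and Prdx6, Hmox1, Sod3, Gsr, Gclc and Gsta4 had none. The core TGACNNNGC, searched on both strands, was present in 11 of these 35 members (31.4%), against 12.4% of 32851 windows and 14% of 27025 genes. The AP-1 motif TGANTCA, which reads the same on both strands and can overlap the core, was present in 6 of 35 members (17.1%), against 7.81% of windows and 8.97% of genes. Of the 24 members that were differentially expressed (DE) in at least 1 comparison below, 19 had a window, and 5 of these held the core. Their windows are shown because they place the core beside members with large and small changes, with the core or its reverse complement in capitals. They lie at chr4:116685349-116685648 (Prdx1, plus strand), chr3:107895604-107895903 (Gstm5, plus), chr6:138140277-138140576 (Mgst1, plus), chr4:149166033-149166332 (Pgd, minus) and chr3:122245307-122245606 (Gclm, plus), and each is written on its gene's strand.
Prdx1: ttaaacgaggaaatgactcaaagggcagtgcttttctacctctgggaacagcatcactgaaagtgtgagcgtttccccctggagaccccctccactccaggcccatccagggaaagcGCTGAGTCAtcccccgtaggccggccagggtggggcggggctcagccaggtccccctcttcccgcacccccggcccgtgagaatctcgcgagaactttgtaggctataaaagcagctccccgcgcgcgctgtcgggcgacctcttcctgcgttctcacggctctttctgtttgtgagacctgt
Gstm5: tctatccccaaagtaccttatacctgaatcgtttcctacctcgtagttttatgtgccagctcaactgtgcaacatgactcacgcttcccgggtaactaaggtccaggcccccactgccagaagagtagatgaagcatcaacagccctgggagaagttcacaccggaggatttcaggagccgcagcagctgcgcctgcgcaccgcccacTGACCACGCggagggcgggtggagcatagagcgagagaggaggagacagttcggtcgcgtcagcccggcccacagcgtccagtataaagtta
Mgst1: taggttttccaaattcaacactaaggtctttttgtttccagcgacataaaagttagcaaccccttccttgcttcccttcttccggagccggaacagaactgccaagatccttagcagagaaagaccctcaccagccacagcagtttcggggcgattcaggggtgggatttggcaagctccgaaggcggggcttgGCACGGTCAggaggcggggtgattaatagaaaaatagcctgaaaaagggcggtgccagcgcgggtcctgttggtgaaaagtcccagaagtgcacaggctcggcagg
Pgd: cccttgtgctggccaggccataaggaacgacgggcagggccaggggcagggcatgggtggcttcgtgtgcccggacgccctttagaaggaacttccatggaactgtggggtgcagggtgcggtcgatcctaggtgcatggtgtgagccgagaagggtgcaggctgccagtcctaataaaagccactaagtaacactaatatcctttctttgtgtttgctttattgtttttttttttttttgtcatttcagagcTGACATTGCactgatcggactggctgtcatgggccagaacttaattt
Gclm: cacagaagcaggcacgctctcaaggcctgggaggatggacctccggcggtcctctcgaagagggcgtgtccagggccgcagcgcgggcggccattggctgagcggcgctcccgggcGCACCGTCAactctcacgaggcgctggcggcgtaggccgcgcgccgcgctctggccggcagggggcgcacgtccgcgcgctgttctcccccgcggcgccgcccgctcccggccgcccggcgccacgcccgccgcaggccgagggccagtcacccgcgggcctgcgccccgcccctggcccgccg
In Prdx1 the core was on the opposite strand, 133 bases before the start, and overlapped an AP-1 motif. Gstm5 held it on its own strand 42 bases before the start, Mgst1 on the opposite strand 56 bases before and Gclm on the opposite strand 134 bases before. Pgd held it just after the gene start used for 1 of its RefSeq windows. That window lies inside the RefSeq span of the gene (chr4:149149991-149166705), so the match need not be in the promoter. A match describes letters in the window and no binding, and a window without one says only that these letters were not there.

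Library totals ranged from 655996 to 1095534 counts for shBrca2-CM and from 1093609 to 1624392 for shControl-CM, while the control medium libraries held 4623846 and 5476988. Levels are given as counts scaled to a fixed total (CPM), corrected by TMM factors over the 8 libraries, for replicates in numeric order, and were counted at the 3' ends of transcripts. Each pair of media was fitted alone with edgeR's quasi-likelihood test, and DE genes had a Benjamini-Hochberg adjusted p (Padj) under 0.1, an absolute log2 fold change (log2FC) over 0.5 and a mean normalized count over 5. Within shControl-CM, replicates 1 and 3 differed more (chi-square per degree of freedom 8.35) than any pair with shBrca2-CM (1.65 to 1.94), so counts without each of them are given with the results. The 2 control medium libraries gave 6.64. This value was computed on raw counts and grows with depth, and library totals differed between the groups, so it does not rank the groups. Mesenchymal markers were present in full (10 of 10 with a row, Col1a1 and Vim among them), and their summed level was 7181 to 8769 CPM for control medium, 4673 to 5663 for shControl-CM and 3964 to 4523 for shBrca2-CM. Of 12 epithelial markers, 3 had a row (summed 37 to 41.7, 57.7 to 70.6 and 59.3 to 94.1 CPM in the same order), of 10 blood cell markers 4 (43.6 to 63.4, 138 to 266 and 102 to 155 CPM, most of it Cd14), and of 6 endothelial markers 3 (6.02 to 6.78, 0 to 2.56 and 1.78 to 4.98 CPM). Epcam, Cdh1, Ptprc and Pecam1 had no row in the table used. The part of these markers in the results was not tested. In bulk RNA a change in the share of cells and a change per cell cannot be told apart.

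**Figure D1:**
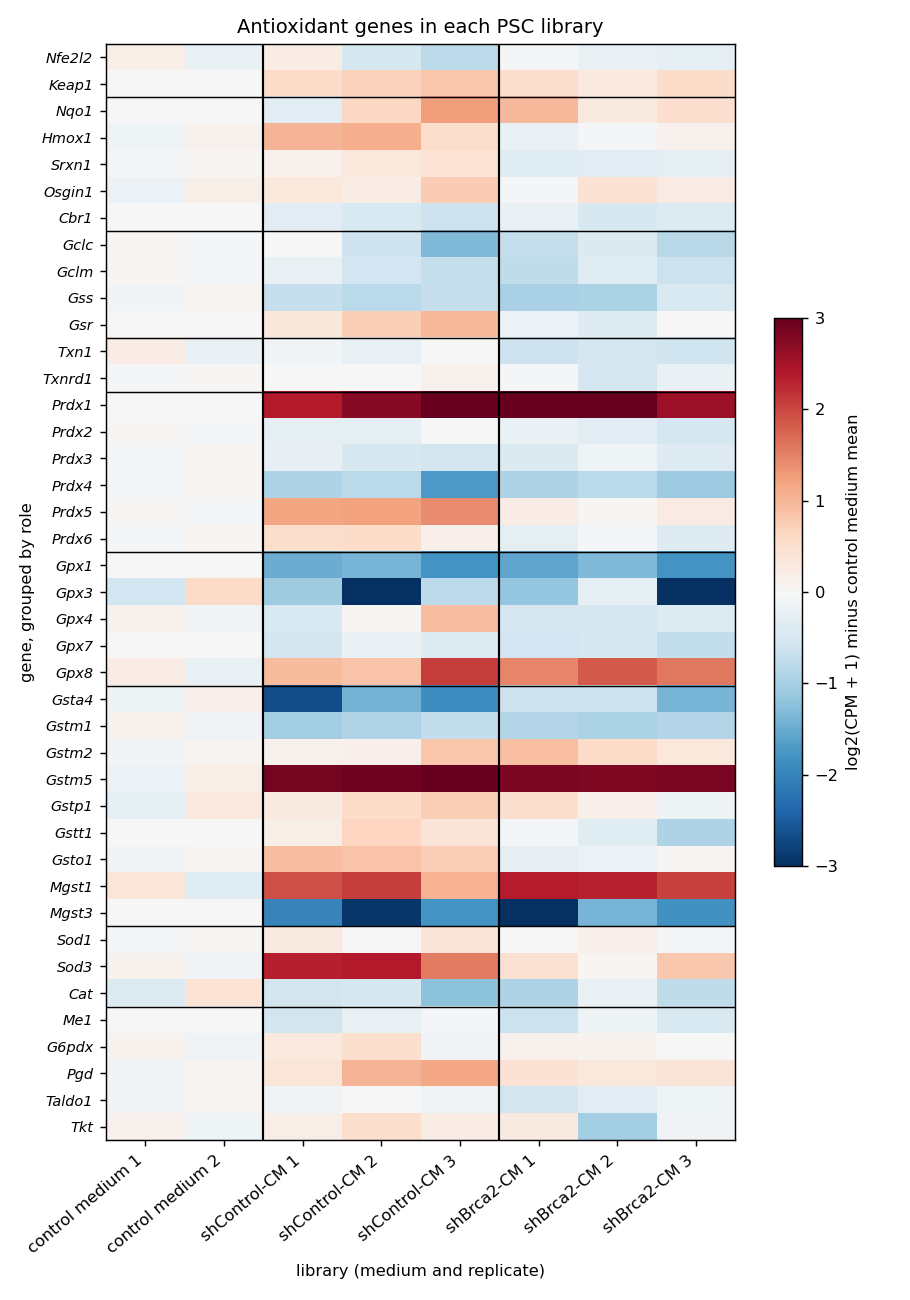
Heat map of log2(CPM + 1) minus the mean of the control medium libraries for the 41 members (rows, grouped by role) in each of the 8 libraries (columns), with red for higher and blue for lower values and the strongest colours standing for values at or beyond the ends of the scale. Prdx1 and Gstm5 were red in all 6 conditioned medium libraries, Gpx1 and Mgst3 were blue in all 6, and Sod3 was darkest in the shControl-CM libraries.

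The comparison of shBrca2-CM with shControl-CM asks how the PSCs' antioxidant genes differed between media from the Brca2-silenced and the control organoids. No member rose and 5 members fell: Sod3, Prdx5, Gsto1, Hmox1 and Gsr. Over all 11035 genes tested, 1.58% were DE and higher and 1.55% DE and lower, against 0 and 5 of the 40 members tested (12.5% lower). At an unadjusted p under 0.05, 2 members were higher (6.71% of all genes) and 11 lower (6.68% of all genes). DESeq2's likelihood ratio test called 0 higher and 4 lower, against 1.51% and 1.83% of the genes it gave an adjusted p. The median log2FC of the members was -0.14, against 0.03 over all genes, and 27 of 40 members were below 0, against 5184 of all 11035 genes. Without shControl-CM replicate 1 that median was -0.24.

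Sod3, the superoxide dismutase secreted into the extracellular matrix, had the largest difference of the 5. It was at 401, 307 and 516 CPM with shBrca2-CM, at 1477, 1517 and 859 CPM with shControl-CM, and at 317 and 270 CPM with control medium. The 3 shControl-CM libraries lay above all 5 others, with replicate 3 the lowest of them. From 1284 ± 369 CPM (SD, n = 3) to 408 ± 104 (SD, n = 3), log2FC was -1.63 ± 0.23 (SE, edgeR Padj = 0.00238).

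Prdx5, a peroxiredoxin of mitochondria, peroxisomes and cytosol, was at 684, 600 and 702 CPM with shBrca2-CM and at 1333, 1361 and 1575 CPM with shControl-CM. Its control medium levels of 602 and 578 CPM were close to those with shBrca2-CM, and the conditioned media did not overlap. The difference from 1423 ± 132 to 662 ± 54.7 CPM (SD, n = 3 each) gave log2FC -1.08 ± 0.12 (SE, edgeR Padj = 0.00056). RefSeq (GRCm38.p6) places Prdx5 at chr19:6906697-6910106, overlapping Trmt112, so reads could be shared between them.

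Gsto1, a glutathione transferase that also reduces dehydroascorbate, was at 341, 361 and 415 CPM with shBrca2-CM, at 775, 736 and 676 CPM with shControl-CM, and at 382 and 429 CPM with control medium. Here too the shControl-CM libraries were apart from the other 5. The log2FC between the conditioned media was -0.94 ± 0.13 (SE, edgeR Padj = 0.00167).

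Hmox1, the inducible heme oxygenase and a classical NRF2 target, was at 166, 183 and 209 CPM with shBrca2-CM, at 388, 410 and 276 CPM with shControl-CM, and at 174 and 210 CPM with control medium. Its shBrca2-CM and control medium values overlapped, and the shControl-CM values were above both. Log2FC was -0.91 ± 0.17 (SE, edgeR Padj = 0.0142), and the call was lost without shBrca2-CM replicate 1 or replicate 2, with Padj up to 0.125. Gsr, which returns oxidized glutathione to its reduced form, was at 37.6, 32.4 and 42.6 CPM with shBrca2-CM, at 53.8, 71.5 and 86.3 CPM with shControl-CM, and at 43.1 and 42.1 CPM with control medium. Its groups did not overlap either, but the call was the weakest of the 5 (log2FC -0.87 ± 0.22 SE, edgeR Padj = 0.0746). It was lost with scaling by total counts, with DESeq2 and in 5 of 6 fits that left out 1 library (each but the one without shControl-CM replicate 1), with Padj up to 0.337. Gm24727 and Gm17803 overlap Gsr in RefSeq.

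**Figure D2:**
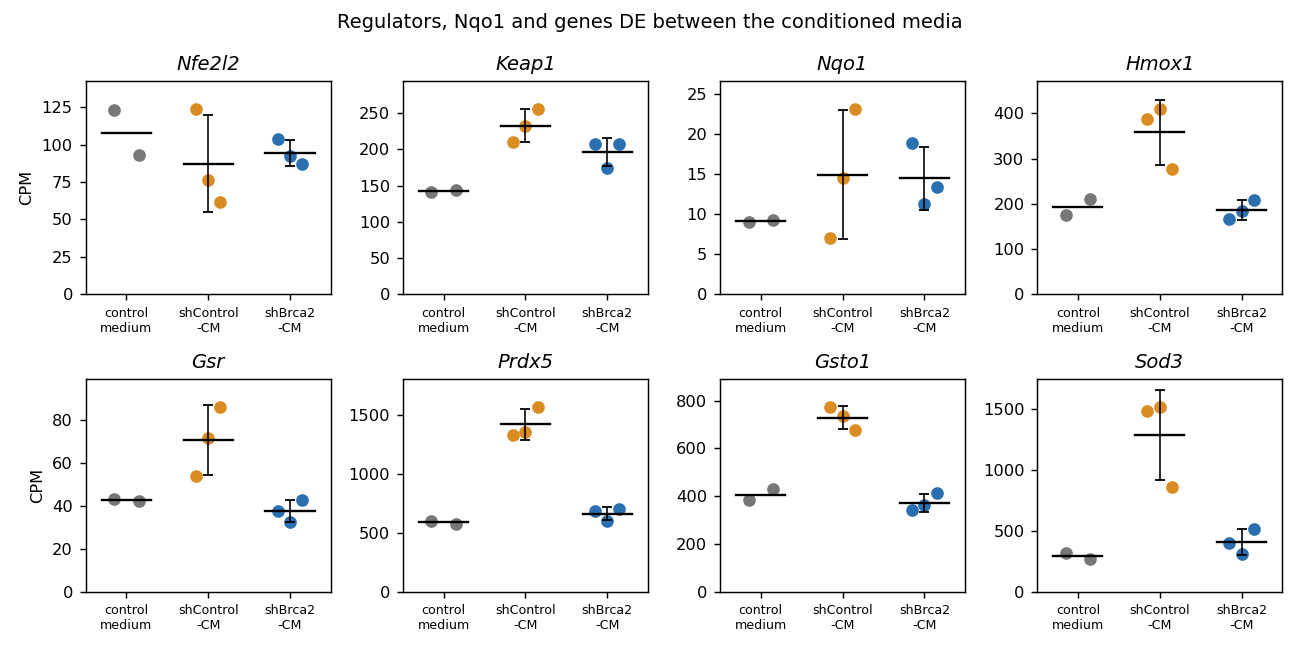
CPM in each library (points) of Nfe2l2, Keap1, Nqo1 and the 5 members DE between the conditioned media, with the mean as a horizontal line and error bars of 1 SD for the groups of 3 (none for the 2 control medium libraries). In Sod3, Prdx5, Gsto1, Hmox1 and Gsr all 3 shControl-CM points lie above all points of the other media, while the groups of Nfe2l2 overlap. For Nqo1 the shControl-CM points overlap both other media, and the shBrca2-CM points lie above both control medium points.

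The regulators and the other classical targets gave no call between the conditioned media. Nfe2l2 was at 104, 92.1 and 87 CPM with shBrca2-CM and at 124, 76.3 and 61.8 CPM with shControl-CM (log2FC 0.12 ± 0.24 SE, edgeR Padj = 0.888), and Keap1 at 207, 174 and 208 against 210, 232 and 256 CPM (log2FC -0.22 ± 0.14 SE, edgeR Padj = 0.555). Nqo1, the quinone reductase often used as a readout of NRF2, was at 18.8, 11.2 and 13.3 CPM against 7.05, 14.5 and 23.1 CPM (log2FC -0.03 ± 0.44 SE, edgeR Padj = 0.989). The shControl-CM replicates of Nqo1 spanned the whole shBrca2-CM range, so a difference of this gene was not detectable here. The glutathione synthesis genes Gclc, Gclm and Gss had log2FC of -0.10, -0.07 and -0.00, with SE of 0.31, 0.17 and 0.22.

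Groups of the conditioned media did not overlap for 14 of the 40 members. Higher with shBrca2-CM was 1 (Gsta4, 2.5% of members against 9.14% of all genes), and lower were 13 (32.5% against 10.6%). Besides the 5 DE members, the lower ones were Keap1, Txn1, Txnrd1, Srxn1, Prdx6, Gstm5, Gstt1 and Taldo1. Txn1, the cytosolic thioredoxin, passed the test for its p but not for its size (log2FC -0.45 ± 0.11 SE, edgeR Padj = 0.0753), at 758, 819 and 767 CPM against 1101, 998 and 1155 CPM. Srxn1, the sulfiredoxin that repairs overoxidized peroxiredoxins, was at 47.7, 49.8 and 51.5 CPM against 67.9, 77.3 and 82.9 CPM (log2FC -0.58 ± 0.17 SE, edgeR Padj = 0.129). Gsta4, which conjugates the lipid peroxidation product hydroxynonenal, was at 18.8, 18.7 and 10.7 CPM against 3.84, 10.6 and 7.47 CPM (log2FC 1.17 ± 0.44 SE, edgeR Padj = 0.251). Without shControl-CM replicate 1 the members called lower were 9 in place of 5 (4.38% of all genes were then DE and lower, in place of 1.55%), the added ones being Srxn1, Gpx4, Gstt1 and Pgd, whereas without shControl-CM replicate 3 (2.03% of all genes) they were 5 with Gsr lost and Prdx6 gained (log2FC -0.77, edgeR Padj = 0.0369). Srxn1 was also called with all 3 groups in one fit and with thinned libraries. Without shBrca2-CM replicate 1 or replicate 2 they were 3 (0.817% and 0.636% of all genes).

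Over all genes, 345 were DE between the conditioned media, 174 higher (50.4%) and 171 lower. With scaling by total counts the split was 250 higher (67.6%) and 120 lower, and the median of all genes moved from 0.03 to 0.14. The median of the members was then -0.03, and 4 members were lower (1.09% of all genes) and 0 higher. Among the markers, Dcn (log2FC -0.93) and Lum (-1.59) were also lower with shBrca2-CM, and Pdgfra (0.85) and Krt19 (2.12) were higher, and their part in the members' values was not tested.

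Against control medium, both conditioned media moved members in both directions. The 2 comparisons share the same 2 control libraries, so they are not independent, and each comparison's values are set side by side. With shControl-CM 11 of 41 members rose (26.8%, against 18.2% of all genes DE and higher) and 8 fell (19.5%, against 18.9%). With shBrca2-CM 5 of 41 rose (12.2%, against 18.6%) and 12 fell (29.3%, against 19.2%). The median log2FC of the members was 0.25 with shControl-CM (all genes -0.10) and -0.31 with shBrca2-CM (all genes -0.05). The first was 0.13 without shControl-CM replicate 3, with total counts or with the replicate block, and 0.09 with thinned libraries, and the second was -0.20 without control medium replicate 2 and -0.19 with thinned libraries. DESeq2 called 11 higher and 7 lower with shControl-CM (15.4% and 14.7% of all genes given an adjusted p), and 5 higher and 10 lower with shBrca2-CM (15.7% and 15.9%). Without shControl-CM replicate 1 the first comparison had 15 higher and 12 lower (19.7% and 23.1% of all genes), adding Nqo1, Gpx4, Gstm2 and Gstp1 above and Nfe2l2, Gclc, Cbr1 and Cat below control medium. Without shControl-CM replicate 3 it had 12 higher and 7 lower (18% and 19.1% of all genes), with Prdx6 gained and Gclm lost. It had 7 higher without control medium replicate 1 (8.8% of all genes) and 5 lower without control medium replicate 2 (8.97%). Without shBrca2-CM replicate 2 the second had 8 higher (18.4% of all genes), with Keap1, Nqo1 and Sod3 gained, and Me1 was gained among the lower. Thinning all libraries to the smallest total ended the shControl-CM calls of Gclm, Gss, Gpx3 and Gpx8 and the shBrca2-CM calls of Gpx3, Gpx7 and Cat, and it added Me1 among the lower with both media and Pgd among the higher with shBrca2-CM.

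**Figure D3:**
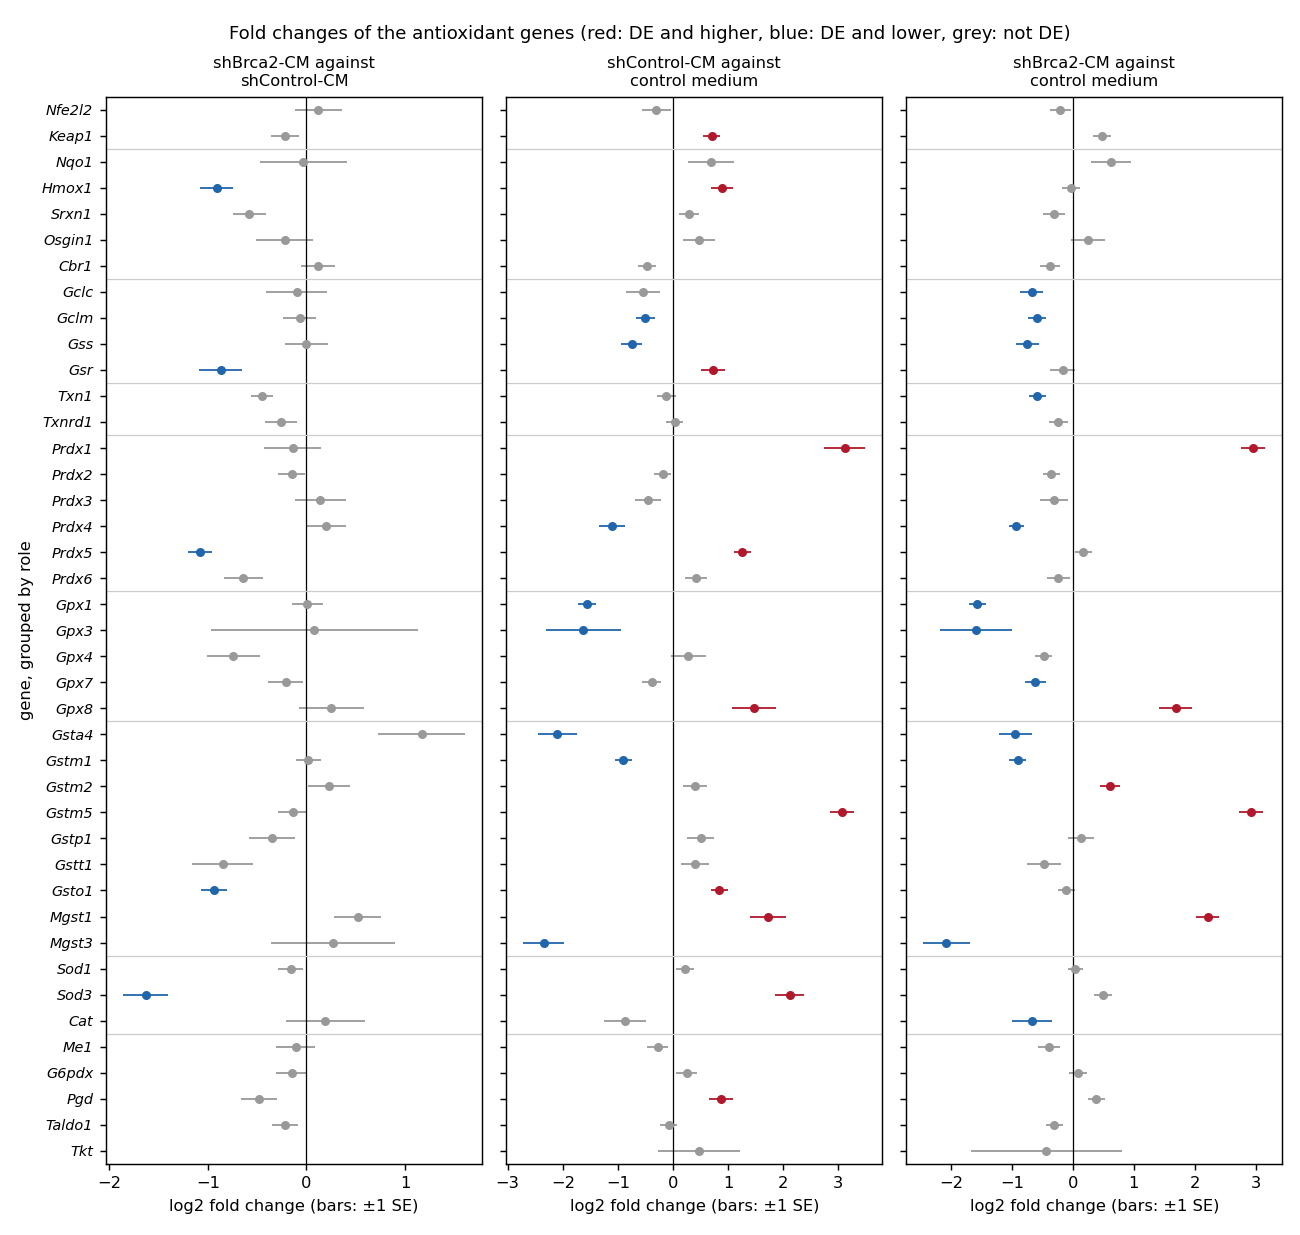
Fitted log2FC (horizontal axis, with bars of 1 SE) of each member in the 3 comparisons, grouped by role, with red for DE and higher, blue for DE and lower and grey for not DE. Blue points are limited to 5 members in the left panel, and Prdx1 and Gstm5 lie near 3 in both panels against control medium.

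The 5 members that fell between the conditioned media rose with shControl-CM over control medium and were not called with shBrca2-CM. Log2FC of shControl-CM over control medium was 2.12 for Sod3, 1.26 for Prdx5, 0.89 for Hmox1, 0.84 for Gsto1 and 0.72 for Gsr. In the same order, shBrca2-CM gave 0.49, 0.17, -0.03, -0.11 and -0.17, with SE of 0.15, 0.14, 0.15, 0.14 and 0.21. Sod3 passed for its p (edgeR Padj = 0.00825) but lay just under the fold threshold, and was called without shBrca2-CM replicate 2 or control medium replicate 1. The shControl-CM values rest on the same shControl-CM libraries as the comparison that picked these 5, the shBrca2-CM values on its shBrca2-CM libraries, and both on the same 2 controls. The Hmox1 and Gsr calls with shControl-CM were lost without control medium replicate 1, and that of Gsr also without control medium replicate 2 or shControl-CM replicate 2.

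Among the regulators, Keap1 was at 141 and 144 CPM with control medium and above that in all 6 conditioned libraries. It rose with shControl-CM (log2FC 0.70 ± 0.16 SE, edgeR Padj = 0.00845), while with shBrca2-CM it was 0.47 ± 0.15 (SE, edgeR Padj = 0.00922), under the fold threshold. Nfe2l2 at 123 and 92.9 CPM with control medium overlapped both conditioned media (log2FC -0.30 ± 0.27 and -0.21 ± 0.17 SE). The value with shControl-CM ranged from -0.66 to -0.07 over fits without 1 library, and Nfe2l2 was called lower without replicate 1 (edgeR Padj = 0.0211). Nqo1 was low, at 9.04 and 9.24 CPM with control medium, below every shBrca2-CM library and within the shControl-CM range. Its log2FC of 0.69 ± 0.42 with shControl-CM and 0.63 ± 0.33 with shBrca2-CM (SE) did not pass. It too rested on single libraries, from 0.16 to 1.07 with shControl-CM, where it was called higher without replicate 1 (edgeR Padj = 0.0199), and up to 0.77 with shBrca2-CM, called without replicate 2 (edgeR Padj = 0.098). Osgin1 and Cbr1, 2 further NRF2 targets, and Srxn1 were not called in either comparison, with log2FC between -0.47 and 0.47, and Cbr1 was called lower with shControl-CM under total counts and without replicate 1.

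Of the 4 genes of glutathione synthesis and reduction, 3 fell with shBrca2-CM (75%, against 19.2% of all genes) and 2 with shControl-CM (50%, against 18.9%), while Gsr rose with shControl-CM. Gclc, the catalytic subunit of glutamate-cysteine ligase and the rate-limiting step, was at 39.1, 47.3 and 35.5 CPM with shBrca2-CM, 64.7, 41.6 and 25.1 CPM with shControl-CM, and 66.4 and 62.3 CPM with control medium. The shBrca2-CM libraries were all below control (log2FC -0.68 ± 0.19 SE, edgeR Padj = 0.00368), and the shControl-CM libraries scattered from the control level to far below it (-0.55 ± 0.31 SE, edgeR Padj = 0.193). Without shControl-CM replicate 1 Gclc was called lower there as well (-0.99, edgeR Padj = 0.00465), so that library decided the count of 2. Gclm, its modifier subunit, was at 111, 146 and 121, at 161, 126 and 115, and at 194 and 185 CPM in the same order, so every conditioned library was below both controls. It fell with shBrca2-CM (log2FC -0.59 ± 0.15 SE, edgeR Padj = 0.00135) and, at the edge of the fold threshold, with shControl-CM (-0.50 ± 0.18 SE, edgeR Padj = 0.0539). The shControl-CM call of Gclm was lost in 4 of 5 fits without 1 library, all but the one without shControl-CM replicate 1. It was also lost with the replicate block and with thinned libraries. Gss, the glutathione synthetase, was at 34.7, 34.8 and 49.7 CPM with shBrca2-CM, 42.3, 38.7 and 42.1 CPM with shControl-CM, and 64.5 and 73.1 CPM with control medium. Its log2FC was -0.75 ± 0.19 (SE) with each conditioned medium (edgeR Padj = 0.0013 and 0.0127), the shControl-CM call being lost without control medium replicate 2. Txn1 fell with shBrca2-CM (log2FC -0.59 ± 0.14 SE, edgeR Padj = 0.000366) from control levels of 1361 and 986 CPM, a call lost without control medium replicate 1. Its reductase Txnrd1 was not called, with log2FC of 0.03 and -0.24. Gm46822 and Gm6061 overlap Gclm and Gssos2 overlaps Gss in RefSeq.

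Peroxiredoxins, which reduce peroxides with thioredoxin, went in both directions. Prdx1, a cytosolic member, was at 13.6 and 14 CPM with control medium, at 76.2, 96.6 and 189 CPM with shControl-CM and at 124, 116 and 87 CPM with shBrca2-CM. All 6 conditioned libraries lay far above both controls, with log2FC 3.12 ± 0.37 (SE, edgeR Padj = 0.000241) and 2.96 ± 0.20 (SE, edgeR Padj = 2.83e-19). Prdx4, the peroxiredoxin of the endoplasmic reticulum, was at 1008 and 1105 CPM with control medium, at 552, 605 and 319 CPM with shControl-CM and at 558, 604 and 499 CPM with shBrca2-CM. It fell with both (log2FC -1.11 ± 0.24 and -0.93 ± 0.13 SE, edgeR Padj = 0.00643 and 5.16e-08). Prdx2, Prdx3 and Prdx6 were called in no comparison, but Prdx6 was called higher with shControl-CM without replicate 3 (log2FC 0.55). Their log2FC against control medium ranged from -0.45 to 0.42, and that of Prdx6 between the conditioned media was -0.64 (edgeR Padj = 0.156). AV051173 overlaps Prdx1 in RefSeq.

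Glutathione peroxidases went in both directions as well. Gpx1, the main cytosolic enzyme, was at 667 and 689 CPM with control medium, at 242, 256 and 196 CPM with shControl-CM and at 224, 268 and 195 CPM with shBrca2-CM, and fell with both (log2FC -1.56 ± 0.16 and -1.57 ± 0.14 SE, edgeR Padj = 0.000118 and 5.24e-14). Gpx8, a membrane enzyme of the endoplasmic reticulum, rose from 11.6 and 8.17 CPM to 19.9, 18.4 and 44.1 CPM with shControl-CM and 28.9, 37.3 and 31.1 CPM with shBrca2-CM (log2FC 1.47 ± 0.40 and 1.69 ± 0.27 SE, edgeR Padj = 0.0189 and 5.1e-07). The shControl-CM call of Gpx8 was lost without either control library, and Cdc20b overlaps the gene in RefSeq. Gpx3, the secreted form, was near the limit of detection, at 4.87 and 12 CPM with control medium and at 3.2, 0 and 4.07 CPM and 2.89, 6.22 and 0 CPM with the conditioned media. A count of 0 allows up to 3 counts, and both Gpx3 calls (log2FC -1.63 and -1.60) were lost by DESeq2, by thinning the libraries to the smallest total and without control medium replicate 2. The first was also lost without shControl-CM replicate 2 or control medium replicate 1. The second was also lost without shBrca2-CM replicate 3, with the replicate block and with all 3 groups in one fit. Gpx7 fell with shBrca2-CM (log2FC -0.62 ± 0.17 SE, edgeR Padj = 0.00347) and was at -0.39 ± 0.18 (SE, edgeR Padj = 0.119) with shControl-CM, and the difference between the conditioned media did not pass (-0.21, edgeR Padj = 0.694). Gpx4, which reduces lipid hydroperoxides, was called in no comparison. Its shControl-CM replicates spread from 211 to 554 CPM, and without replicate 1 of that group it was called lower with shBrca2-CM (log2FC -1.04, edgeR Padj = 0.00572). Against control medium it was called lower with shBrca2-CM without shBrca2-CM replicate 3 or control medium replicate 2 (log2FC down to -0.57).

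Glutathione transferases held the widest range. Gstm5, a mu class transferase, was at 11.3 and 14.8 CPM with control medium, at 101, 104 and 124 CPM with shControl-CM and at 98.4, 95.8 and 100 CPM with shBrca2-CM. The 6 conditioned libraries were close to each other and far above control, with log2FC 3.07 ± 0.22 and 2.92 ± 0.20 (SE, edgeR Padj = 1.1e-05 and 6.77e-19). Mgst1, a membrane-bound transferase with peroxidase activity, was at 32 and 19.1 CPM with control medium, at 96.7, 107 and 52.3 CPM with shControl-CM and at 130, 126 and 105 CPM with shBrca2-CM, and rose with both (log2FC 1.72 ± 0.33 and 2.21 ± 0.19 SE, edgeR Padj = 0.00359 and 6.8e-15). Mgst3, a microsomal relative of it, fell from 21 and 21.3 CPM to 4.48, 1.93 and 5.43 CPM and 1.45, 7.47 and 5.33 CPM (log2FC -2.35 ± 0.37 and -2.08 ± 0.38 SE, edgeR Padj = 0.00123 and 7.22e-06). Gsta4 fell as well, from 26.6 and 33.3 CPM (log2FC -2.10 ± 0.36 with shControl-CM and -0.95 ± 0.27 with shBrca2-CM, SE, edgeR Padj = 0.0021 and 0.00355). Gstm1 fell with both (log2FC -0.90 and -0.91), and Gstm2 rose with shBrca2-CM (0.61 ± 0.16 SE, edgeR Padj = 0.0017), a call lost without shBrca2-CM replicate 1. The mu class genes have near-identical copies, so how their reads were divided is uncertain, and 4933431E20Rik overlaps Gstm5. Gstp1 and Gstt1 were not called, with log2FC of 0.50 and 0.40 with shControl-CM and 0.13 and -0.48 with shBrca2-CM. Leaving out 1 library added Gstp1 with shControl-CM and Gstt1 with shBrca2-CM (-0.69 without replicate 1, edgeR Padj = 0.0948).

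**Figure D4:**
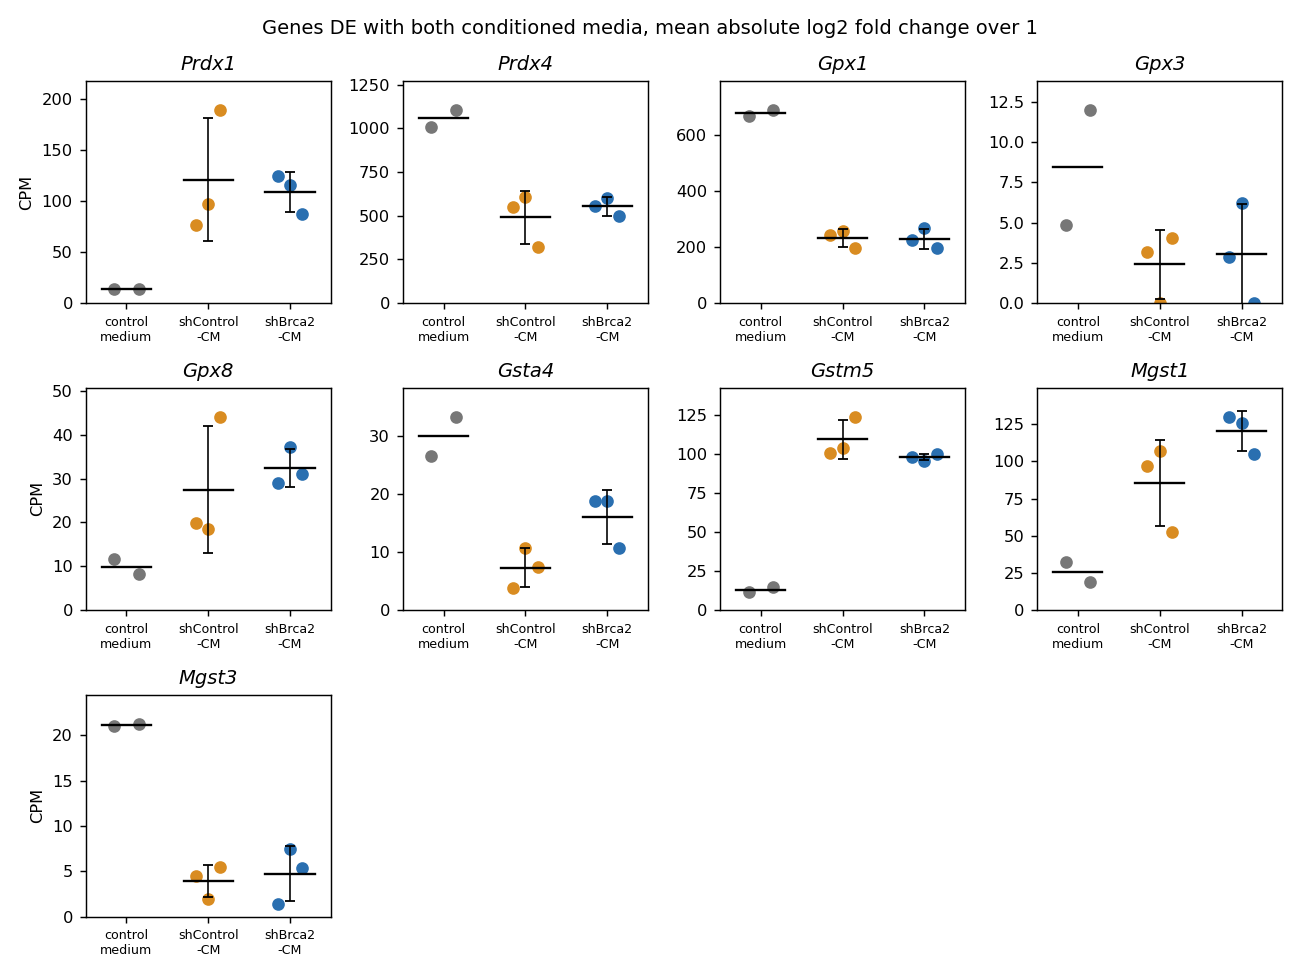
CPM in each library (points) of the 9 members that were DE with both conditioned media and had a mean absolute log2FC over 1, a choice made after the values were seen, with the mean as a line and error bars of 1 SD for the groups of 3 (none for control medium). The conditioned media lie above control medium for Prdx1, Gpx8, Gstm5 and Mgst1 and below it for Prdx4, Gpx1, Gsta4 and Mgst3, while Gpx3, with 2 libraries at 0, lies below control medium with shControl-CM and overlaps it with shBrca2-CM.

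Of the remaining superoxide and peroxide enzymes, cytosolic Sod1 ranged from 1062 to 1216 CPM for shBrca2-CM and from 1093 to 1444 for shControl-CM around control levels of 1068 and 1124 CPM, and was called in no comparison. Cat, the catalase of peroxisomes, was at 8.68, 14.9 and 9.76 CPM with shBrca2-CM, 11.5, 11.6 and 6.79 CPM with shControl-CM, and 12.7 and 23.4 CPM with control medium. It was DE and lower with shBrca2-CM (log2FC -0.68 ± 0.33 SE, edgeR Padj = 0.0957), but its 2 controls differed widely and the call was lost in 7 of 9 other settings and in 3 of 5 fits without 1 library (shBrca2-CM replicate 1 or 3, or control medium replicate 2). For NADPH supply, Pgd, the second dehydrogenase of the pentose phosphate pathway, was at 352, 322 and 338 CPM with shBrca2-CM, 334, 528 and 578 CPM with shControl-CM, and 244 and 277 CPM with control medium. All conditioned libraries were above both controls, and Pgd rose with shControl-CM (log2FC 0.87 ± 0.22 SE, edgeR Padj = 0.0146), a call lost without control medium replicate 1. With shBrca2-CM it was at 0.38 ± 0.14 (SE, edgeR Padj = 0.0286), under the fold threshold, and the difference between the conditioned media did not pass (-0.48, edgeR Padj = 0.249). Me1, G6pdx and Taldo1, which make NADPH or recycle the sugars of the pathway, were called in no comparison (log2FC -0.40 to 0.25). Tkt had 3 or fewer counts in every conditioned library and no call, so nothing can be read from it at this depth.

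A wider list of 70 NRF2 pathway genes, 65 with a row, was taken for context. Between the conditioned media 1 of 62 rose (1.61%, against 1.58% of all genes) and 0 fell (against 1.55%). DESeq2 called 1 higher and 0 lower (1.51% and 1.83% of all genes given an adjusted p), and at an unadjusted p under 0.05 in edgeR 3 were higher and 7 lower, against 6.71% and 6.68% of all genes. The one that rose was Ephx1, the microsomal epoxide hydrolase, at 57.9, 74.7 and 56.8 CPM with shBrca2-CM and 22.4, 39.6 and 30.6 CPM with shControl-CM, against 128 and 126 CPM with control medium (log2FC 1.08 ± 0.24 SE, edgeR Padj = 0.0383). Against control medium, 12 of 65 rose (18.5%, against 18.2% of all genes) and 18 fell (27.7%, against 18.9%) with shControl-CM. With shBrca2-CM, 10 of 65 rose (15.4%, against 18.6%) and 16 fell (24.6%, against 19.2%). The glutathione transferase relatives Mgst2 (log2FC 4.05 and 3.97) and Gstk1 (3.14 and 2.59) and Esd, which releases glutathione in formaldehyde clearance (2.62 and 2.49), led the increases. Selenop, the secreted selenium carrier, fell with shControl-CM (log2FC -2.70) and with shBrca2-CM (-1.23). Chac2, a glutathione-degrading enzyme, was also called lower with both but had 3 or fewer counts in every conditioned library, so that it cannot be ranked, and against that floor it was at least 2.32-fold lower for shControl-CM and at least 1.55-fold lower for shBrca2-CM. H6pd, which makes NADPH in the endoplasmic reticulum, was also among the 5 with shBrca2-CM (1.99).

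Of 26 sources of reactive oxygen and nitrogen, 15 had a row, and Nox1, Nox4 and Cybb were among those without. Nos2, the inducible nitric oxide synthase, was at 5.79, 4.98 and 4.44 CPM with shBrca2-CM, 17.9, 18.4 and 19.7 CPM with shControl-CM, and 0.348 and 0 CPM with control medium. Its 3 media did not overlap, with log2FC -1.86 ± 0.36 (SE, edgeR Padj = 0.0181) between the conditioned media, and taking 3 counts per library as the floor its level exceeded control medium at least 28.9-fold for shControl-CM and at least 7.86-fold for shBrca2-CM. Xdh, the xanthine dehydrogenase, rose with shBrca2-CM over shControl-CM (log2FC 0.53 ± 0.14 SE, edgeR Padj = 0.0864). Between the conditioned media these were the 2 calls of 14 genes tested, 1 in each direction (7.14%, against 1.58% and 1.55% of all genes). Against control medium 5 of 15 rose (33.3%, against 18.2%) and 4 fell (26.7%, against 18.9%) with shControl-CM, and 5 rose (33.3%, against 18.6%) and 3 fell (20%, against 19.2%) with shBrca2-CM. Lox, the collagen cross-linking oxidase that releases peroxide, fell with both (log2FC -3.37 and -2.37). The metalloreductases Steap2 (2.93 and 3.52) and Steap4 (2.68 and 2.52) rose with both. The monoamine oxidases Maob (-1.77 with shControl-CM and -0.99 with shBrca2-CM) and Maoa (-1.57 and -1.30) fell with both.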

How the data were processed

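RNA was measured in 8 samples of 3 groups, taken from the recorded treatment and titles. The authors deposited raw read counts for each gene, from 3' MARS-seq libraries, with replicates kept apart. The submitters' processing notes list bcl2fastq, cutadapt, STAR 2.4.2a, HTSeq, DESeq2 and mm10. How molecular identifiers were treated, the strand setting and the rule that selected the 12160 genes are not given in the sources used here. The table had 1 further per-sample column, which no sample's labels matched and which was left out.

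The counts were analysed in R 4.3.3 with edgeR 4.0.16 (TMM scaling, a minimum of 10 counts summed over the fitted samples, and the quasi-likelihood test) for each pair of media, with Benjamini-Hochberg adjustment over all genes tested. The test was tried on simulated data. Alternatives tried were the likelihood ratio test of DESeq2 1.42.0, other size factors, other count filters, 1 fit of all groups, a replicate block, stricter thresholds, thinned libraries and leaving out each library. Against a group with 3 or fewer counts in every library, a fold change was given as a lower bound from the highest floor of that group. This floor and all levels cover counting error only. Promoter windows came from RefSeq (GRCm38.p6); protein sequences were not used here.

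The members and lists were chosen with earlier results of these data known. By rule, values in every library were given for members DE between the conditioned media, for Nfe2l2, Keap1, Nqo1 and Hmox1, and for DE members among the 3 with the largest absolute log2 fold change of their role. Values of Txn1 and Srxn1 between the conditioned media, of Gpx4 and Sod1, and of members named for overlap, were added after they were seen. Of each other list, up to 5 genes with the largest change past the threshold were named.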

Additional observations from a re-analysis of the deposited data

How the results depend on the processing

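In the 41 calls of members over the 3 comparisons, 0 changed sign under 577 alternative values, and 24 were lost in at least 1 setting. The stricter threshold used the main fit, so its values among the 577 could not change sign, and the other values came from the same libraries. Of 81 member results that were not called, 27 changed sign and 23 passed the threshold in at least 1 setting. A change of sign counted as a reversal where the value was called, and medians were judged against the SD of the libraries' medians. Both rules were set after the values were seen. An adjusted p under 0.05 with an absolute log2 fold change over 1 left 130 DE genes between the conditioned media, 2375 with shControl-CM and 2185 with shBrca2-CM against control medium, with 0 members higher and 2 lower, then 6 higher and 4 lower, then 4 higher and 3 lower. Scaling by total counts moved the members' median to -0.03 between the conditioned media and to 0.13 with shControl-CM, where the median of all genes moved from -0.10 to -0.21. Thinning the libraries to the smallest total left 2922 DE genes with shControl-CM against control medium, in place of 4488, and medians of 0.09 and -0.19 with shControl-CM and shBrca2-CM, and filterByExpr gave -0.24 with shBrca2-CM. For these changes the cause was not tested, except that thinning keeps fewer counts and a stricter threshold fewer genes.

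Replicate numbers appear in the labels with no stated meaning. Between the conditioned media, deviations of same-numbered libraries correlated at -0.07, 0.03 and 0.19, and those of differently numbered libraries at -0.26 to 0.28. Each deviation is taken from the mean of its own small group, so the deviations within a group are not independent. These correlations therefore cannot show whether same-numbered libraries share more than a number. The shBrca2-CM replicate 2 library correlated best with shControl-CM replicate 1 (0.28). The replicate block gave 311 DE genes in place of 345 between the conditioned media and 4512 in place of 4488 with shControl-CM against control medium, where the members' median became 0.13 and those called higher became 12. With shBrca2-CM against control medium it gave 3850 in place of 4555.

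Leaving out 1 library gave 128 to 976 DE genes between the conditioned media, 1901 to 5157 with shControl-CM and 3903 to 4510 with shBrca2-CM against control medium. Members lower ranged over 3 to 9, 5 to 12 and 11 to 13, members higher over 0 to 0, 7 to 15 and 4 to 8, and medians over -0.24 to -0.11, 0.13 to 0.27 and -0.31 to -0.20. Between the conditioned media the count of DE genes moved by over 1.5 times without any library but shControl-CM replicate 3, to 976 without shControl-CM replicate 1, 169 without its replicate 2, and 175, 128 and 160 without shBrca2-CM replicates 1, 2 and 3. With shControl-CM against control medium it was 1901 without control medium replicate 1 and 2269 without replicate 2, fits in which the lone control library is assumed to vary like the other group. Replicates 1 and 2 of shBrca2-CM were the shallowest libraries, which limits genes of low level there most. Which uncalled members gained a call without a library is given with the results, and in other settings Gpx7 (total counts), Prdx6 (replicate block) and Cat (DESeq2 size factors, total counts and 1 fit of all groups) were called with shControl-CM against control medium.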
